A study of Mus musculus with 4 samples.

Results

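The genes of peptide presentation on MHC class I, together with the lipid-presenting class I-like molecule CD1d, were examined in peritoneal B1a cells and splenic follicular B2 cells. The set held 10 genes chosen by name, B2m, H2-K1, H2-D1, Tap1, Tap2, Tapbp, Psmb8, Psmb9, Nlrc5 and Cd1d1, out of 20599 gene symbols quantified. All 10 had an entry in the deposited tables and passed the filter on low counts. They were measured by RNA-Seq in 4 libraries, B1a cells (n = 2) and B2 cells (n = 2), all from wild-type C57BL/6 mice recorded in the labels as 4 weeks of age. The methods describe the donors as littermates of mice with a floxed Dnmt3a deleted in B cells, state elsewhere that C57BL/6J mice served as controls, and give an older age for the follicular donors than for the B1a donors. The groups thus differ in cell type, in tissue and, going by the methods, in age, and these cannot be told apart. B1a cells were taken from peritoneal washes as CD23- IgM+ CD5+ cells and B2 cells from spleen as IgDhi IgMlo CD21+ cells, 1 library for each mouse as the methods describe it. The Dnmt3a-deficient counterparts were not used here.

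As background, MHC class I molecules display peptides from the cytosol to CD8 T cells. Proteasomes cut proteins into peptides, and immune cells replace the catalytic subunits of the standard proteasome with immunoproteasome subunits such as those encoded by Psmb8 and Psmb9. The TAP transporter, made of TAP1 and TAP2, pumps peptides into the endoplasmic reticulum, where tapasin (Tapbp) holds the empty heavy chain close to the transporter until a peptide binds. The heavy chains H2-K and H2-D need the light chain beta2-microglobulin (B2m) to reach the surface. NLRC5 is a transactivator that acts at class I promoters, much as CIITA acts at class II promoters. CD1d also pairs with beta2-microglobulin, but it is loaded with lipids in endosomes and lysosomes and is seen by NKT cells.

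The library totals lay between 11032732 and 18588623 counts. On a log2 scale of depth-scaled counts the B1a replicates correlated at r = 0.836 across genes and the B2 replicates at r = 0.966, while pairs of different cell type lay between 0.788 and 0.858. Genes with at least 100 counts in 1 replicate and no more than 3 in its partner numbered 200 for B1a cells and 4 for B2 cells. The 5 B cell markers were present in every library, and with edgeR 2 were called higher and 1 lower in B1a cells. The sorting and lineage markers separated the groups, with a summed level of 1181 and 893 CPM for the B1a markers in B1a cells against 75.7 and 75.3 CPM in B2 cells. CPM is the count scaled to library size, corrected with TMM factors. Of 9 listed macrophage markers, 8 had an entry, and these did not move together. Their summed level was 170 and 210 CPM in B1a cells against 58.6 and 57.2 CPM in B2 cells. Most of the B1a sum was Lyz2. Of the 6 tested, 1 was called higher in B1a cells, Lyz2, at 127 and 136 CPM against 16.8 and 27.2 CPM in B2 cells. Cd68 was at 16.3 and 22.1 CPM in B1a cells and 8.59 and 3.35 CPM in B2 cells (adjusted p = 0.237 with edgeR), and Csf1r was at 16.9 and 21.9 CPM against 21.2 and 18.3 CPM. The groups overlapped for Csf1r, Mrc1, Marco and Mertk. Fcgr1 was at 0 in both B1a libraries and in 1 B2 library, and Timd4 at 0 in 1 library of each cell type. Mast cell markers summed to 34.4 and 6.75 CPM in B1a cells and 0 and 0.941 CPM in B2 cells, with 1 of 2 tested called higher, Cma1 (21.96 and 4.68 CPM against 0 in both B2 libraries, adjusted p = 0.0499 with edgeR). Erythroid markers summed to 78.8 and 504 CPM in B1a cells and 36.1 and 80.8 CPM in B2 cells, which overlapped, with 1 of 5 called higher, Hba-a2 (35.6 and 96.6 CPM against 5.03 and 7.48 CPM, adjusted p = 0.0278 with edgeR). The part of these cells in the results was not tested.

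Several promoters of these genes carry short motifs that are shown here because the called genes share them. The start sites and sequences were taken from RefSeq on GRCm38.p6, the same primary sequence as mm10, and 7 of the 10 genes had a window. Tap2, Nlrc5 and Cd1d1 had none. For H2-K1 the more downstream of the listed starts was used, which lies inside the annotated extent of the gene. As background, NLRC5 and the RFX, CREB/ATF and NF-Y factors act on class I promoters through the SXY module, of which the X2 box resembles a CRE and the Y box is an inverted CCAAT. The letters TGACG, followed after 15 to 25 bases by the letters ATTGG, were searched for on both strands of the 250 bases upstream of each start. It was found in H2-K1, H2-D1 and B2m, with 20 bases between the 2 parts in each. Among all 32851 windows of that length, 125 held the pair, or 0.381%. The motifs were chosen after these windows had been seen, and a match is a description and not a tested binding site. The 3 stretches are printed 5′ to 3′ on the strand of the gene, with the searched letters in capitals:
H2-K1, chr17:34000359-34000388, minus strand: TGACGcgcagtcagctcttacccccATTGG
H2-D1, chr17:35262993-35263022, plus strand: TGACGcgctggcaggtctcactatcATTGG
B2m, chr2:122147609-122147638, plus strand: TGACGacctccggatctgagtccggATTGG
The H2-K1 and H2-D1 stretches were identical at 23 of 30 bases. B2m matched H2-K1 at 13 and H2-D1 at 12 of the 30, and 10 of these lie in the searched letters.

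Upstream of this module, H2-K1 and H2-D1 also shared a kappaB motif, searched as GGGATTCCC, and an IRF-type motif, searched as AANNGAAA and present here on the opposite strand. The kappaB letters occurred in 0.301% of the windows and the IRF-type letters in 21.3%, counting both strands. The stretch from the kappaB to the IRF-type motif is printed with both motifs in capitals:
H2-K1, chr17:34000430-34000457, minus strand: GGGATTCCCcatctccacagTTTCACTT
H2-D1, chr17:35262924-35262951, plus strand: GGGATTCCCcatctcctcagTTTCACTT
From the kappaB motif to the end of the Y box letters, H2-K1 and H2-D1 were identical at 88 of 99 bases. For context, the 170 bases before the start of H2-D1 (chr17:35262924-35263093, plus strand) and of B2m (chr2:122147517-122147686, plus strand) are printed whole, with all of these motifs in capitals:
H2-D1: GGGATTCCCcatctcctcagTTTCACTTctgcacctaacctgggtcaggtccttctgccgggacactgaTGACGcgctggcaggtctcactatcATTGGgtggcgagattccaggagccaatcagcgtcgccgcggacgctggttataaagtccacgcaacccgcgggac
B2m: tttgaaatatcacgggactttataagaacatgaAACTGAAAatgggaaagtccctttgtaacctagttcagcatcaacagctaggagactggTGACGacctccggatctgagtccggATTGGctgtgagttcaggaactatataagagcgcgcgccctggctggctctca
B2m held the IRF-type letters and no GGGATTCCC. Tap1 and Psmb9 lie head to head, and the 225 bases between their starts (chr17:34187331-34187555, plus strand of Tap1) are shown because this interval is the upstream region of both genes. Its CCAAT, in capitals, is the only match there to the motifs searched, TATAAA on the gene strand included:
Tap1 and Psmb9: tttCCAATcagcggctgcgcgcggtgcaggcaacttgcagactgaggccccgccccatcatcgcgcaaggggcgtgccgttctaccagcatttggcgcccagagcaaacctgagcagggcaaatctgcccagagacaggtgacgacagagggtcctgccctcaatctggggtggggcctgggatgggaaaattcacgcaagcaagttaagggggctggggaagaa
CCAAT on either strand, which ATTGG also spells in reverse, occurred in 6 of the 7 windows and in 33.8% of all windows.

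Levels of different genes were compared on the per-length TPM scale. By mean TPM, H2-D1 ranked 59 and Cd1d1 6513 of all symbols in B1a cells, and 74 and 4432 in B2 cells. H2-D1, B2m and H2-K1 stood at the top, with mean TPM of 2462 ± 368, 2425 ± 227 and 2231 ± 204 in B1a cells (SD, n = 2) and 1662 ± 34.6, 1906 ± 347 and 1656 ± 22.995 in B2 cells (SD, n = 2). Their order among themselves lay within the spread of the replicates in both cell types. Tapbp followed at 408 ± 43.1 and 370 ± 30.7 TPM, Psmb8 at 301 ± 45.4 and 291 ± 39.9 TPM, and Tap1 at 178 ± 23.9 and 212 ± 14.6 TPM. Tap2, Psmb9 and Nlrc5 were lower again, and Cd1d1 was the least abundant of the set at 24.3 ± 6.17 TPM in B1a cells and 48.7 ± 6.70 TPM in B2 cells. The 10 genes together took up 0.864% and 0.808% of the TPM of the B1a libraries and 0.635% and 0.665% of that of the B2 libraries.

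**Figure D1:**
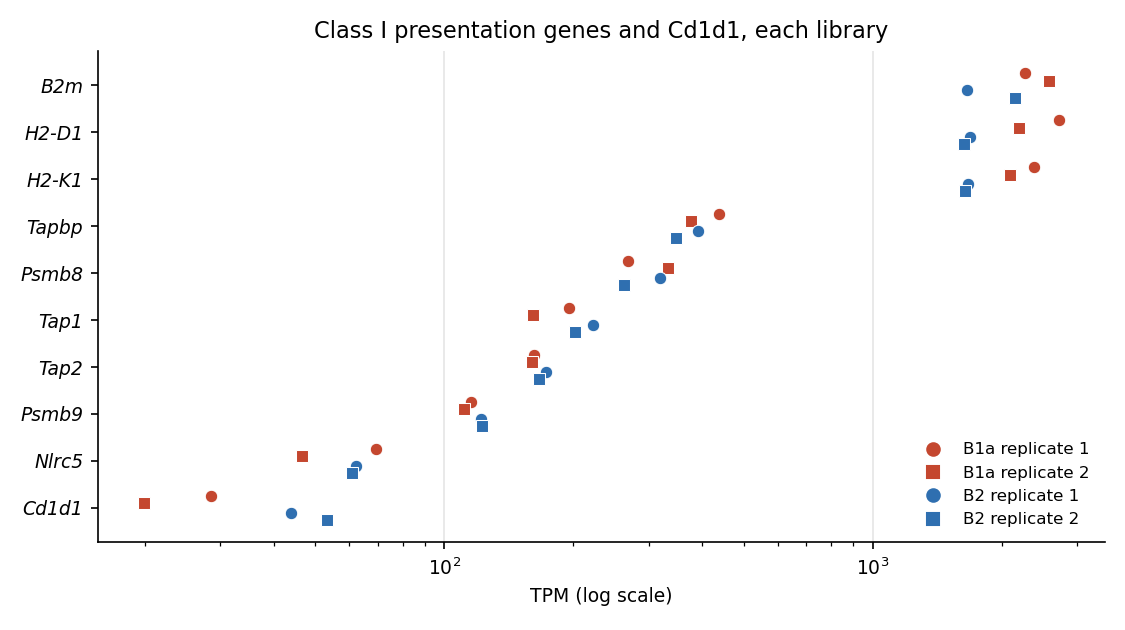
TPM of each of the 10 genes (log axis) in every library, B1a in red and B2 in blue, with replicate 1 as circles and replicate 2 as squares. H2-D1, B2m and H2-K1 lie between 1637 and 2722 TPM and Cd1d1 lies between 19.9 and 53.4 TPM.

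The classical class I heavy chains were higher in B1a cells, and the other 8 genes did not pass the test. Of the 10 genes, 2 were called at an adjusted p under 0.05 with edgeR's quasi-likelihood test and Benjamini-Hochberg adjustment over all 12078 genes tested. Both were heavy chains and both were higher in B1a cells. None was called lower, by edgeR, DESeq2 or limma-voom. Before adjustment 4 of the 10 had a p under 0.05 with edgeR, compared with 2525 of all 12078 genes tested. Over all genes, 693 were called, or 5.74%, of which 512 (4.24%) were higher and 181 (1.50%) lower in B1a cells. With limma on log2(TPM + 1) the split was 266 higher and 233 lower. In the edgeR fit the log2 fold changes of the 10 genes had a median of 0.23, against -0.03 for all genes tested. Of the 10, 8 were positive. The groups did not overlap in CPM for 7 of the 10 genes, compared with 54.3% of all genes tested. The share over all genes was taken in CPM only. In TPM the Tapbp groups overlapped, and the Tap1 groups, which overlapped in CPM, were apart with the B1a libraries lower. For Tap2 and Psmb9 the groups were apart on both scales, but in opposite directions. Fits that left out 1 B1a library could not measure the spread of that group, so their calls are not given. The median of the 10 genes was 0.23 without B1a replicate 1 and 0.27 without B1a replicate 2.

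**Figure D2:**
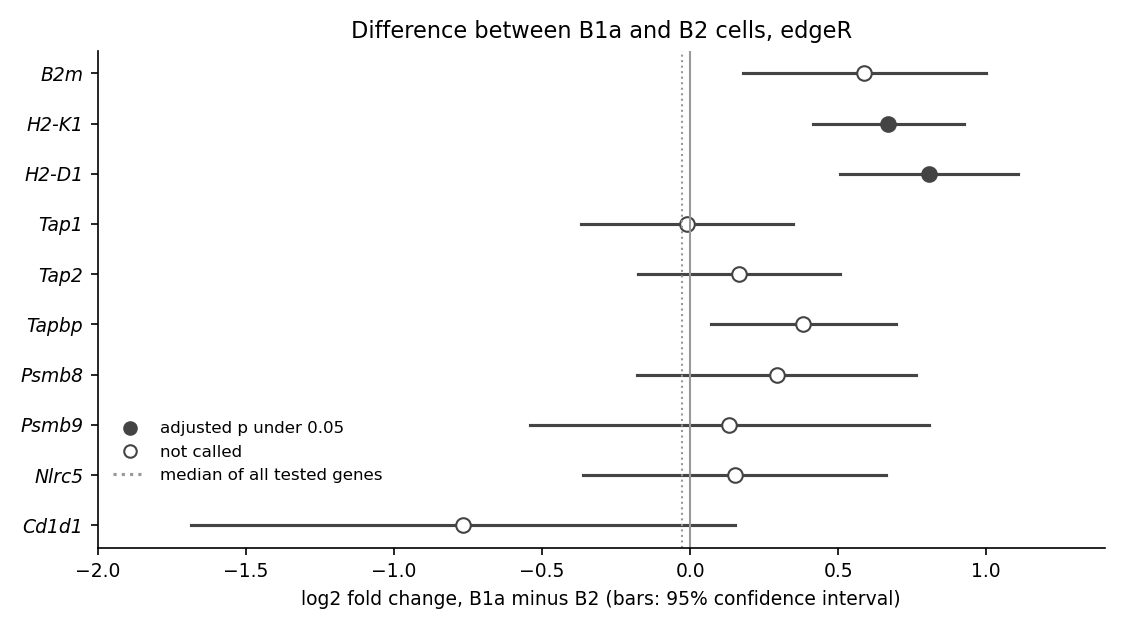
The log2 fold change of each gene, B1a minus B2, from the edgeR fit (x axis), with bars for the 95% confidence interval. H2-K1 at 0.67 and H2-D1 at 0.81 are filled because their adjusted p was under 0.05, and the dotted line marks the median of all genes tested at -0.03.

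H2-K1 encodes the K heavy chain, which binds the peptide (chr17:33996012-34000619 on GRCm38). H2-K1 measured 1618 and 1457 CPM in the B1a libraries, compared with 969 and 965 CPM in the B2 libraries. Both B1a libraries were above both B2 libraries, and the B2 pair was nearly level. It was 1.59-fold higher in B1a cells, a log2 fold change of 0.67 (SE 0.10, 95% interval 0.41 to 0.92, adjusted p = 0.0213 with edgeR). H2-D1, the D heavy chain (chr17:35263094-35267497), was at 1960 and 1626 CPM in B1a cells and at 1032 and 1018 CPM in B2 cells. The groups again did not overlap, and the fold was 1.75, a log2 fold change of 0.81 (SE 0.12, 95% interval 0.51 to 1.11, adjusted p = 0.0198 with edgeR). On TPM neither heavy chain passed the threshold with limma, with log2 fold changes of 0.43 and 0.56 and adjusted p of 0.109 and 0.095 at a pseudocount of 1, while the median of all genes moved to -0.29. Relative to the median of all genes, H2-K1 stayed between 0.62 and 0.87 and H2-D1 between 0.69 and 1.06 over the 14 alternatives that gave each a value.

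B2m (chr2:122147687-122153082) is the light chain that every class I heavy chain and CD1d share. B2m measured 770 and 901 CPM in the B1a libraries, compared with 480 and 632 CPM in the B2 libraries. The lower B1a library was above the higher B2 library, but the B2 libraries differed from each other by more than the gap between the groups. The log2 fold change was 0.59 (SE 0.17, 95% interval 0.18 to 1.00) and the adjusted p was 0.121 with edgeR, so B2m was not called. It passed the threshold in 7 of 15 alternatives, some of which left 1 library in a group, whose spread was then not measured. On all libraries it passed with DESeq2 (adjusted p = 0.00379) but not with limma-voom without weights (0.0626). With 1 library left out its log2 fold change ran from 0.40 to 0.79, and its sign was positive in all 15. Per unit of heavy chain TPM, B2m TPM came to 0.243 and 0.347 in B1a cells and 0.232 and 0.306 in B2 cells, ranges that overlapped.

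Few of the other class I heavy chains and class I-like genes were called. Of 27 listed genes, 22 had an entry and 18 were tested, and 1 was called higher and 0 lower in B1a cells, with a median log2 fold change of 0.02. The called gene was H2-Q7, a Qa-2 chain, at 162 and 254 CPM in B1a cells and 85.01 and 57.4 CPM in B2 cells (log2 fold change 1.55, SE 0.30, adjusted p = 0.0404 with edgeR). H2-Q7 is a near copy of H2-Q6, H2-Q8 and H2-Q9, and the division of reads among the 4 was erratic, with 1802 counts for H2-Q9 in B1a replicate 1 and 0 in B1a replicate 2. Summed over these 4 genes, the level was 613 and 474 CPM in B1a cells and 339 and 381 CPM in B2 cells. H2-Q7 passed the threshold in 10 of 14 alternatives. H2-L and Cd1d2 had no entry under these symbols and were not analyzed here.

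When all 21 classical and nonclassical heavy chains with an entry were summed before the fit, the level was 6158 and 5080 CPM in B1a cells and 4054 and 4040 CPM in B2 cells. The log2 fold change of the sum was 0.47 (SE 0.11, 95% interval 0.20 to 0.75) with an adjusted p of 0.0773 with edgeR, so the sum was not called. H2-K1 and H2-D1 made up 54.7% and 57.5% of the summed heavy chain TPM in B1a cells and 47.0% and 46.6% in B2 cells. The exact permutation test of these shares gave p = 0.333 (two-sided), which is the smallest that 2 against 2 libraries allow. The remaining heavy chains summed to 4223 and 3171 TPM in B1a cells and 3790 and 3751 TPM in B2 cells, groups that overlapped. Of the 75-base stretches of the H2-D1 transcript, 6.90% occur exactly in transcripts of other genes, and 1.55% of those of H2-K1.

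The subunits of the peptide pump, TAP1 and TAP2, did not pass the test. Tap1 (chr17:34187556-34197225) measured 243 and 206 CPM in the B1a libraries, compared with 236 and 217 CPM in the B2 libraries, so the groups overlapped, and its log2 fold change was -0.01 (SE 0.15, 95% interval -0.37 to 0.35, adjusted p = 0.978 with edgeR). Tap2 (chr17:34204479-34216321) was at 169.3 and 172 CPM in B1a cells and at 154 and 150 CPM in B2 cells, which did not overlap, with a log2 fold change of 0.17 (SE 0.14, 95% interval -0.17 to 0.51, adjusted p = 0.585 with edgeR). Neither was called in any of 15 alternatives. In TPM, Tap1 was at 195 and 161 in B1a cells and at 223 and 202 in B2 cells. Tap2 was at 162 and 160 TPM in B1a cells and at 173 and 166 TPM in B2 cells, so on this scale its groups were also apart, but with the B2 libraries higher.

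Tapasin is the bridge between TAP and the empty heavy chain. Tapbp (chr17:33919478-33929290) was at 508 and 449 CPM in B1a cells and at 386 and 348 CPM in B2 cells. Both B1a libraries were above both B2 libraries. The log2 fold change was 0.38 (SE 0.13, 95% interval 0.07 to 0.70) with an adjusted p of 0.166 with edgeR. Tapbp was not called in any alternative that kept all 4 libraries. Its log2 fold change was 0.29 without B1a replicate 1 and 0.47 without B1a replicate 2. Of the 8 other genes of peptide loading and trimming in the endoplasmic reticulum, 1 was called higher and 0 lower, with a median log2 fold change of 0.21. This was Pdia3, the oxidoreductase ERp57 of the peptide loading complex, at 264 and 248 CPM in B1a cells and at 117 and 150 CPM in B2 cells (log2 fold change 0.94, SE 0.17, adjusted p = 0.0331 with edgeR). Pdia3 passed the threshold in 12 of 15 alternatives, and its highest adjusted p was 0.194.

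The immunoproteasome subunits of the set did not pass the test. Psmb8 (chr17:34198195-34201454) was at 134 and 170 CPM in B1a cells and at 135 and 113 CPM in B2 cells. Only B1a replicate 2 stood above both B2 libraries, and the log2 fold change was 0.29 (SE 0.19, 95% interval -0.18 to 0.76, adjusted p = 0.471 with edgeR). The Psmb8 log2 fold change was 0.45 without B1a replicate 1 and 0.11 without B1a replicate 2. Psmb9 (chr17:34182030-34187330) was at 36.8 and 36.2 CPM in B1a cells and at 32.9 and 33.6 CPM in B2 cells, with a log2 fold change of 0.13 (SE 0.27, 95% interval -0.54 to 0.81, adjusted p = 0.856 with edgeR). In TPM the Psmb9 groups were apart in the opposite direction, at 116 and 111 in B1a cells and at 122 and 123 in B2 cells.

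The standard subunits that these replace, and the third immunoproteasome subunit Psmb10, were read beside them. Psmb5, the counterpart of Psmb8, was at 6.10 and 21.2 CPM in B1a cells and 24.3 and 27.4 CPM in B2 cells, and Psmb7, the counterpart of Psmb10, at 29.9 and 15.9 CPM against 36.4 and 37.0 CPM. Psmb6, the counterpart of Psmb9, was at 37.9 and 42.0 CPM in B1a cells and 36.1 and 29.3 CPM in B2 cells, and Psmb10 at 79.2 and 57.7 CPM against 45.4 and 48.2 CPM. None of these 4 was called, with adjusted p of 0.501, 0.419, 0.651 and 0.298 in the order given. As a share of the summed TPM of the 6 catalytic subunits, the immunoproteasome genes made up 74.3% and 73.6% in B1a cells and 64.9% and 63.5% in B2 cells. The difference of the means was 9.79 percentage points, with p = 0.333 in the two-sided exact permutation test, the smallest that 2 against 2 libraries allow. The pairs differed in direction. Psmb8 made up 93.8% and 84.8% of its pair in B1a cells and 79.4% and 74.1% in B2 cells, and Psmb10 66.4% and 73.1% against 48.3% and 49.4%, whereas Psmb9 made up 56.0% and 53.1% of its pair in B1a cells and 54.5% and 60.1% in B2 cells. Of 20 proteasome core and activator genes outside the set, these 4 included, 0 passed the edgeR test in either direction, and of 6 cytosolic peptidases 0 did, with median log2 fold changes of 0.05 and -0.06. DESeq2 and limma-voom also called 0 of both lists. Before adjustment 1 and 2 genes respectively were under 0.05 with edgeR, compared with 2525 of all 12078 genes tested.

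**Figure D3:**
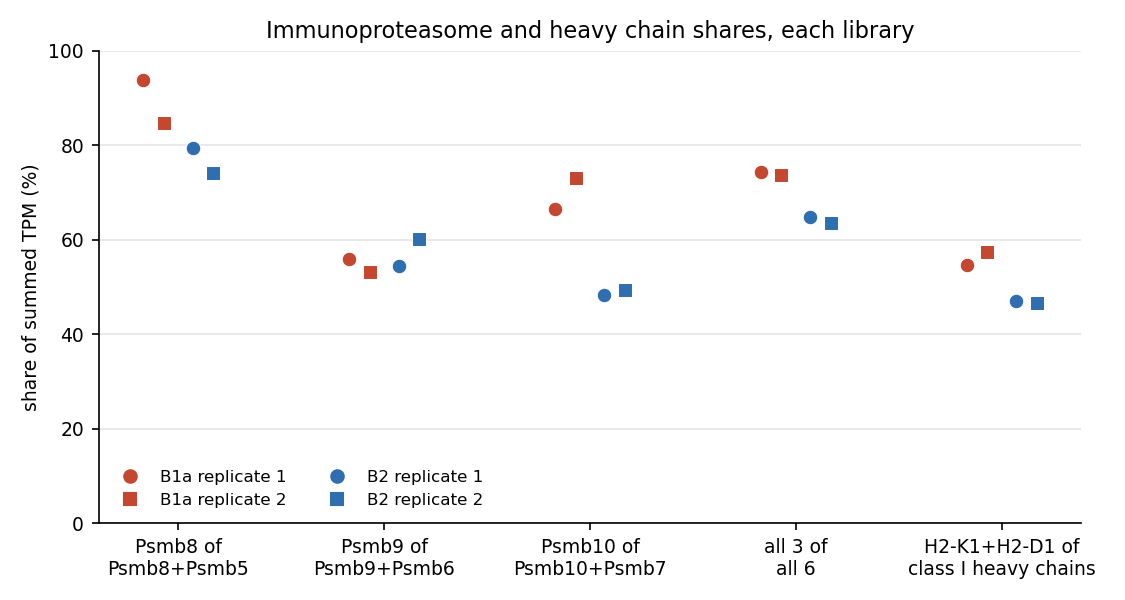
Share of the summed TPM (y axis, in percent) that each immunoproteasome gene takes within its pair, that all 3 take among the 6 catalytic subunits, and that H2-K1 and H2-D1 take among the class I heavy chains, for every library. The immunoproteasome total is 74.3% and 73.6% in the B1a libraries and 64.9% and 63.5% in the B2 libraries, while the Psmb9 pair overlaps.

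Nlrc5, the transactivator of the class I genes, was not called. Nlrc5 (chr8:94434335-94527272) measured 206 and 142 CPM in the B1a libraries, compared with 157 and 157 CPM in the B2 libraries. The B1a libraries lay on either side of the B2 pair, and the log2 fold change was 0.15 (SE 0.21, 95% interval -0.36 to 0.66, adjusted p = 0.768 with edgeR). Its sign depended on the B1a library kept: it was -0.15 without B1a replicate 1 and 0.39 without B1a replicate 2.

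Among 14 other regulators of class I transcription, 0 were called higher and 2 lower in B1a cells, with a median log2 fold change of -0.38. Ciita, the class II transactivator that also can act on class I promoters, was at 387 and 311 CPM in B1a cells and at 1111 and 943 CPM in B2 cells (log2 fold change -1.56, SE 0.16, adjusted p = 0.00535 with edgeR). Ciita was called in all 15 alternatives. Irf1, an interferon-induced activator of class I genes, was at 155 and 80.0 CPM in B1a cells and at 135 and 163 CPM in B2 cells, and Rfx5, a subunit of the RFX complex at the X box, at 139 and 105 CPM against 174 and 153 CPM. Neither passed the test, with adjusted p of 0.632 and 0.289 with edgeR. DESeq2 added Nfkb1, a kappaB-binding subunit, as higher in B1a cells, and limma-voom with weights by cell type added Creb1 as lower. Of 9 class II presentation genes, 4 had an unadjusted p under 0.05 with edgeR, compared with 2525 of all 12078 genes tested. After adjustment 0 of the 9 were called in either direction, and their median log2 fold change was -0.03. DESeq2 and limma-voom each called 1 of them higher, Cd74, the invariant chain, and 1 lower, H2-Ob, a chain of the class II modulator H2-O.

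The interferon response list was mixed. Of 12 genes, 2 were called higher and 0 lower in B1a cells, while the median log2 fold change was -0.55 and DESeq2 called 1 gene, Ifit2, lower. The called genes were the guanylate-binding proteins Gbp2, at 78.3 and 104 CPM in B1a cells against 11.9 and 14.6 CPM in B2 cells (log2 fold change 2.78, SE 0.29, adjusted p = 0.00585 with edgeR), and Gbp7, at 160 and 139 CPM against 31.1 and 40.1 CPM (log2 fold change 2.07, SE 0.22, adjusted p = 0.00605 with edgeR). Both genes were higher in B1a cells in all 15 alternatives and passed the threshold in each.

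Cd1d1 was the member with the most negative fold change. Cd1d1 (chr3:86995834-87012358), the heavy chain that presents lipids, measured 21.96 and 15.6 CPM in the B1a libraries, compared with 28.6 and 35.4 CPM in the B2 libraries. Both B1a libraries were below both B2 libraries. The log2 fold change was -0.77 (SE 0.37, 95% interval -1.69 to 0.15), 1.70-fold higher in B2 cells, and the adjusted p was 0.323 with edgeR, so Cd1d1 was not called. The log2 fold change was -1.04 without B1a replicate 1 and -0.55 without B1a replicate 2. Between 174 and 677 counts stood behind the Cd1d1 values. Of the 75-base stretches of its transcript, 19.4% also occur in Cd1d2, which had no entry of its own. Relative to H2-K1, Cd1d1 TPM per 1000 H2-K1 TPM was 12.1 and 9.53 in B1a cells and 26.3 and 32.6 in B2 cells (exact permutation p = 0.333, two-sided, the smallest possible).

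Several genes that load lipids onto CD1d or carry them were higher in B1a cells. Of 9 listed genes, 3 were called higher and 0 lower in B1a cells, with a median log2 fold change of 0.73. Psap, the precursor of the saposins that lift lipids out of lysosomal membranes, was at 1557 and 1284 CPM in B1a cells and at 590 and 556 CPM in B2 cells (log2 fold change 1.31, SE 0.13, adjusted p = 0.00524 with edgeR). Npc2, a lysosomal sterol carrier, was at 117 and 143 CPM against 51.4 and 54.3 CPM (log2 fold change 1.30, SE 0.20, adjusted p = 0.0199 with edgeR). Gm2a, the GM2 ganglioside activator, was at 483 and 374 CPM against 231 and 210 CPM (log2 fold change 0.96, SE 0.16, adjusted p = 0.0283 with edgeR). Psap was called in all 15 alternatives, Gm2a in 13 and Npc2 in 12, the exceptions including both fits on TPM, where Gm2a reached an adjusted p of 0.117 and Npc2 of 0.0667. All 3 are also lysosomal genes of macrophages. The summed macrophage markers stood at 170 and 210 CPM in the B1a libraries against 58.6 and 57.2 CPM in the B2 libraries. Lyz2 made up most of the B1a sum, and Csf1r, Mrc1, Marco and Mertk overlapped between the groups. The part of such cells in these values was not tested. In bulk samples fewer cells of a type and less RNA per cell cannot be told apart.

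**Figure D4:**
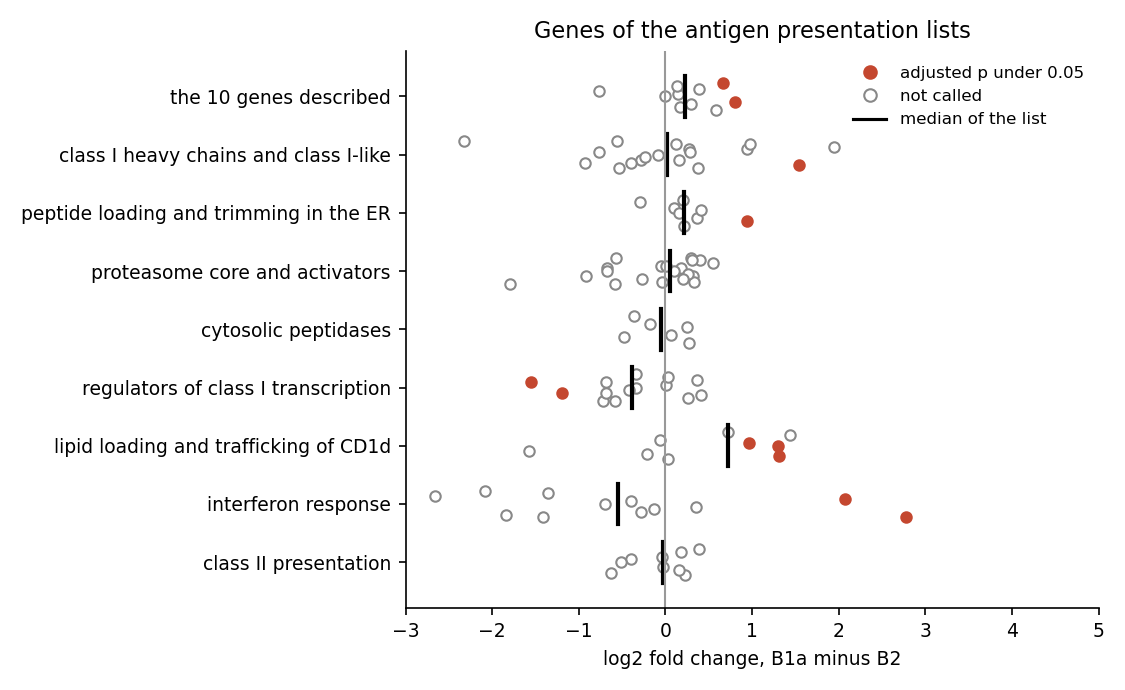
Each dot is the log2 fold change of 1 tested gene, B1a minus B2 (x axis), for the 10 genes and for each list (y axis), red where the adjusted p was under 0.05, with a black bar for the median of the list. The medians run from -0.55 for the interferon response to 0.73 for lipid loading of CD1d.

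**Figure D5:**
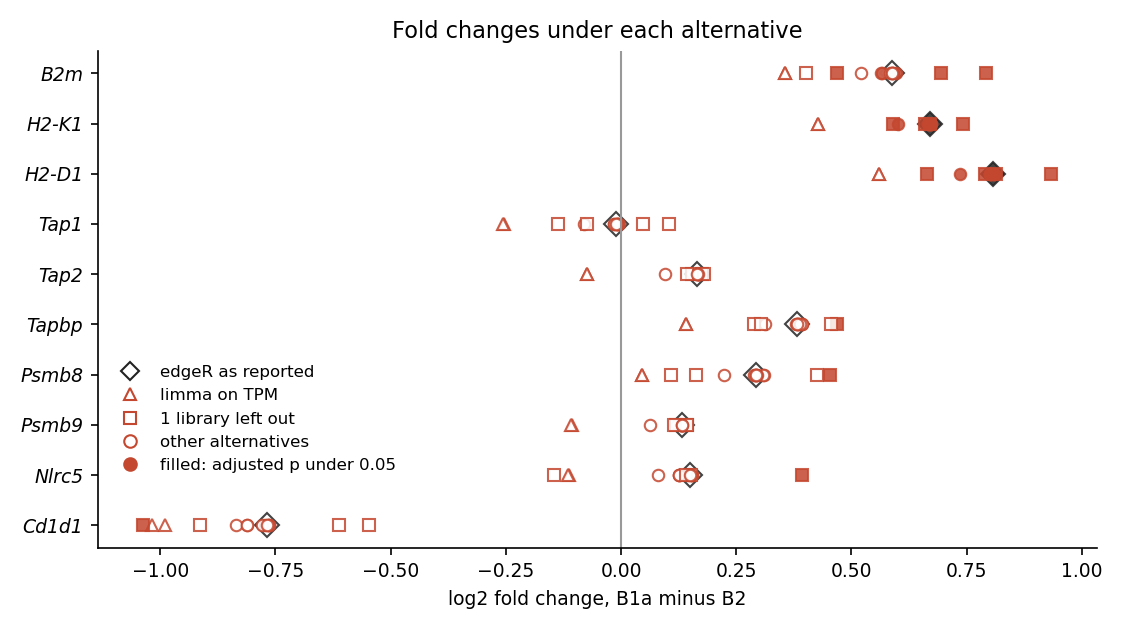
The log2 fold change of each of the 10 genes, B1a minus B2 (x axis), in the edgeR fit as reported (diamonds) and under each alternative, filled where the adjusted p was under 0.05. H2-K1, H2-D1 and B2m are positive and Cd1d1 is negative under every alternative drawn, whereas Tap1, Tap2, Psmb9 and Nlrc5 lie on both sides of 0.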

How the data were processed

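RNA was sequenced from sorted peritoneal B1a cells and splenic follicular B2 cells. Groups and replicate numbers come from the sample titles, and libraries of a group are separate mice by the methods. Reads were mapped to mm10 by the authors, who estimated levels of RefSeq genes in RSEM, version 1.2.29 by the submitters' processing notes. The deposited expected count of an entry is not normalized, and RSEM shares a read among the entries it matches. TPM, scaled per length by the authors, was deposited beside it. A deposited signal column holds posterior standard deviations of the counts and served to describe how reads were divided between entries. FPKM was not used.

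The 21970 entries were summed to 20599 symbols and rounded. H2-K1 had 2 entries, and H2-D1, Tap1, Tap2, Tapbp, Psmb8 and Psmb9 had 4 each, with the same accessions, among which an entry's posterior standard deviation reached 2617 counts. The filter was filterByExpr, the scaling TMM and the test the quasi-likelihood test of edgeR 4.0.16 (R 4.3.3), with Benjamini-Hochberg adjustment over all genes tested and a threshold of 0.05. EBSeq, the tool of the study, was not run. Standard errors follow from the F statistic. Exact permutation tests enumerated the 4 libraries. Alternatives were DESeq2 1.42.0, upper quartile factors, limma-voom (limma 3.58.1) with and without weights by cell type, a filter of 10 counts or none beyond 1, limma on log2(TPM + 1) and log2(TPM + 0.1) for mean TPM of at least 1, a replicate block, each library left out, entries not summed, and heavy chains summed. The totals give a floor of 3 counts at 0.157 to 0.270 CPM, for counting error only, and p-values measure the spread between 2 libraries per group. Positions are from RefSeq on GRCm38.p6, and shared stretches of 75 bases from GENCODE transcripts.

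The 10 genes and the lists were chosen with earlier results of these data known. All 10 are named, with the called genes of each list that changed most (at most 3 in each direction) and H2-Q7, Psmb5, Psmb6, Psmb7, Psmb10, Irf1, Rfx5 and Ciita whatever their values. 1 further called gene of the regulator list is not reported here. H2-Q6, H2-Q8, H2-Q9, Lyz2, Csf1r, Cd68, Mrc1, Marco, Mertk, Fcgr1, Timd4, Cma1, Hba-a2, Nfkb1, Creb1, Cd74, H2-Ob and Ifit2 were named after their values were seen.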

Additional observations from a re-analysis of the deposited data

How the results depend on the processing

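Over the alternatives in which they were fitted as genes of their own, H2-K1 and H2-D1 kept a positive sign and an adjusted p under 0.05 except in the fits on TPM. With limma on log2(TPM + 1) the genes called numbered 499, 266 of them higher and 233 lower, with 0 of the 10 genes called and their median log2 fold change at -0.0141. Tap2 turned to -0.0745, Psmb9 to -0.11 and Nlrc5 to -0.11. With log2(TPM + 0.1) the values were 359 genes called, 196 higher, 163 lower, 0 of the 10 genes, a median of -0.0142, and -0.0749 for Tap2, -0.11 for Psmb9 and -0.12 for Nlrc5. The median of all genes was -0.29 and -0.32 in these fits. The cause was not tested. DESeq2 called 1562 genes (1011 higher, 551 lower) and limma-voom with weights by cell type 1415 (1054 higher, 361 lower), both with B2m added to the 10 genes' calls. Limma-voom called 278 lower, the filter of 10 counts 279 lower, and no filter 1141 genes (779 higher, 362 lower). Upper quartile factors gave the 10 genes a median of 0.16. Leaving out 1 library at a time gave 539 to 6143 genes called (394 to 2787 higher, 144 to 3356 lower), 2 to 5 of the 10 genes called (2 to 5 higher, 0 to 1 lower), a median of 0.15 to 0.29 and a Tap1 value of -0.14 to 0.10, and Nlrc5 ran from -0.15 to 0.39. The lone library of a group was assumed to vary like the other group. The immunoproteasome share differed by 9.10 to 10.5 percentage points in these, and by 8.88 in counts. With the replicate block the genes called numbered 1481 (889 higher, 592 lower), with B2m at an adjusted p of 0.000208. Libraries with the same number did not deviate together (correlation of deviations -0.03). With 2 libraries per cell type this cannot tell whether the numbers pair the samples. Depth limits Cd1d1 most, with 174 counts in its lowest library.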
